A study of Mus musculus with 9 samples.

Results

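Transcripts of 36 genes of mitosis and the spindle checkpoint were followed in 3 lines of cultured mouse lymphoid cells. The members were taken as a set by name, with earlier results of these data known. Finding them by name used no measured value, but the probe set read for each was picked by its signal. They covered the cyclins and Cdc25 phosphatases of mitotic entry, the mitotic kinases, the chromosomal passenger complex, the spindle checkpoint, the ubiquitin pathway of anaphase onset, the kinetochore, spindle motors, the central spindle and 2 chromosome proteins. All 36 were found among the 12929 genes that could be named on the array, on 76 probe sets, and all 36 were among the 12095 genes tested. Each was read at its brightest probe set.

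Total RNA was hybridised to Affymetrix mouse arrays, 1 array per sample and 3 samples per line. RAG2ko cells lack RAG2, which with RAG1 cuts DNA to start V(D)J recombination, and the labels call them committed to the B lineage; they grew with 10 ng/ml mouse IL-7 alone. Pax5ko cells lack PAX5, a transcription factor that holds cells in the B lineage, and are labelled as specified to it. EBFko cells lack EBF1, an earlier transcription factor of that lineage, and are labelled as lymphoid specified. Pax5ko and EBFko cells both grew with 10 ng/ml human Flt3 ligand beside 10 ng/ml IL-7, so genotype and medium cannot be told apart in a comparison with RAG2ko. No line has intact genes at all 3 loci among these samples, no treatment was given, and the sources used here do not give the allele structure, the mouse strain or the number of independent cultures or clones. The p-values therefore measure the spread between these samples, which may be technical.

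Mitosis begins when cyclin B bound to CDK1 is switched on by CDC25 phosphatases, and Polo and Aurora kinases then build the spindle. Kinetochores join chromosomes to spindle microtubules, and the checkpoint proteins MAD2, BUBR1, BUB3, BUB1 and TTK hold back CDC20, the activator of the anaphase promoting complex, until every chromosome is attached. The complex then removes securin, the product of Pttg1, and cyclin B, and the central spindle directs cytokinesis. Most of these transcripts peak in G2 and M phase, so in a bulk sample more cells in those phases and more RNA per such cell cannot be told apart; IL-7 is the growth factor that drives proliferation of early B lineage cells.

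Levels are log2 signals after quantile normalization, given as mean ± SD of 3 arrays per line, and differences are log2 differences ± SE from limma, called at a Benjamini-Hochberg adjusted p under 0.05 over all genes tested. The deposited signals had medians of 73.4 to 97.6 per array, and 40.9% to 47.2% of probe sets were below 64, or 6 on the log2 scale. Ebf1 gave 11.76, 11.83 and 12.44 in RAG2ko, 10.06, 9.89 and 9.99 in Pax5ko and 10.67, 11.10 and 10.85 in EBFko, Pax5 gave 6.77, 7.21 and 7.33, 5.62, 2.64 and 3.57, and 3.06, 6.32 and 6.03 in the same order, and Rag2 gave 5.96, 5.60 and 9.10, 7.86, 7.16 and 7.64, and 9.16, 8.83 and 10.16. Where these probes lie relative to the deleted stretches is not known here, so they check no genotype, and Rag2 was high on the array labelled RAG2ko replicate 3 alone of its line. The mean log2 signal of 12 B lineage markers was 12.64 to 13.12 in RAG2ko, 9.77 to 10.09 in Pax5ko and 5.88 to 6.94 in EBFko. That of 20 stromal markers was 5.5, 6.52 and 9.08 on RAG2ko replicates 1 to 3, 8.26 to 10.21 in Pax5ko and 8.25 to 9.91 in EBFko, so RAG2ko replicate 3 stood apart from its line. Leukocyte markers averaged 11.73 to 12.45 over all arrays and erythroid markers 5.04 to 6.13. Markers of T and NK cells averaged 5.33 to 6.27 in RAG2ko, 4.43 to 5.42 in Pax5ko and 6.14 to 6.75 in EBFko. Those of myeloid cells averaged 4.89 to 5.77, 5.54 to 6.06 and 6.42 to 7.17 in the same order. Single markers differed more between lines. Cd7 averaged 3.91, 3.87 and 10.16 in that order, while Zap70 was highest in RAG2ko, at 9.94, 7.79 and 8.71.

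The members were expressed in every line, with log2 signals of 8.37 to 13.78 on any array, and most differed little: the means of the 3 lines lay within 0.5 of each other for 23 members and more than 1 apart for 4. Cdc25b, Pttg1, Ndc80 and Nuf2 were those 4. In RAG2ko against Pax5ko 8 members rose and none fell; 9.16% of all genes tested were called higher and 7.76% lower, and at an unadjusted p under 0.05 limma gave 17 members higher and 0 lower, against 17.5% and 14% of all genes. Against EBFko 6 members rose and 1 fell in RAG2ko, where 10.9% of all genes were called higher and 9.79% lower, and 10 members higher and 3 lower had an unadjusted p under 0.05, against 17.9% and 15.6% of all genes. In Pax5ko against EBFko none rose and 2 fell, with 4.74% of all genes called higher and 4.8% lower; at an unadjusted p under 0.05 limma gave 0 members higher and 8 lower, against 11.1% and 11.9% of all genes. Called in either direction were 8 of 36 members against 16.9% of all genes in RAG2ko minus Pax5ko, 7 against 20.7% in RAG2ko minus EBFko and 2 against 9.53% in Pax5ko minus EBFko, so the share of members called was near that of all genes or below it outside the first of these. The 3 comparisons share arrays, so their counts are not independent of each other.

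**Figure D1:**
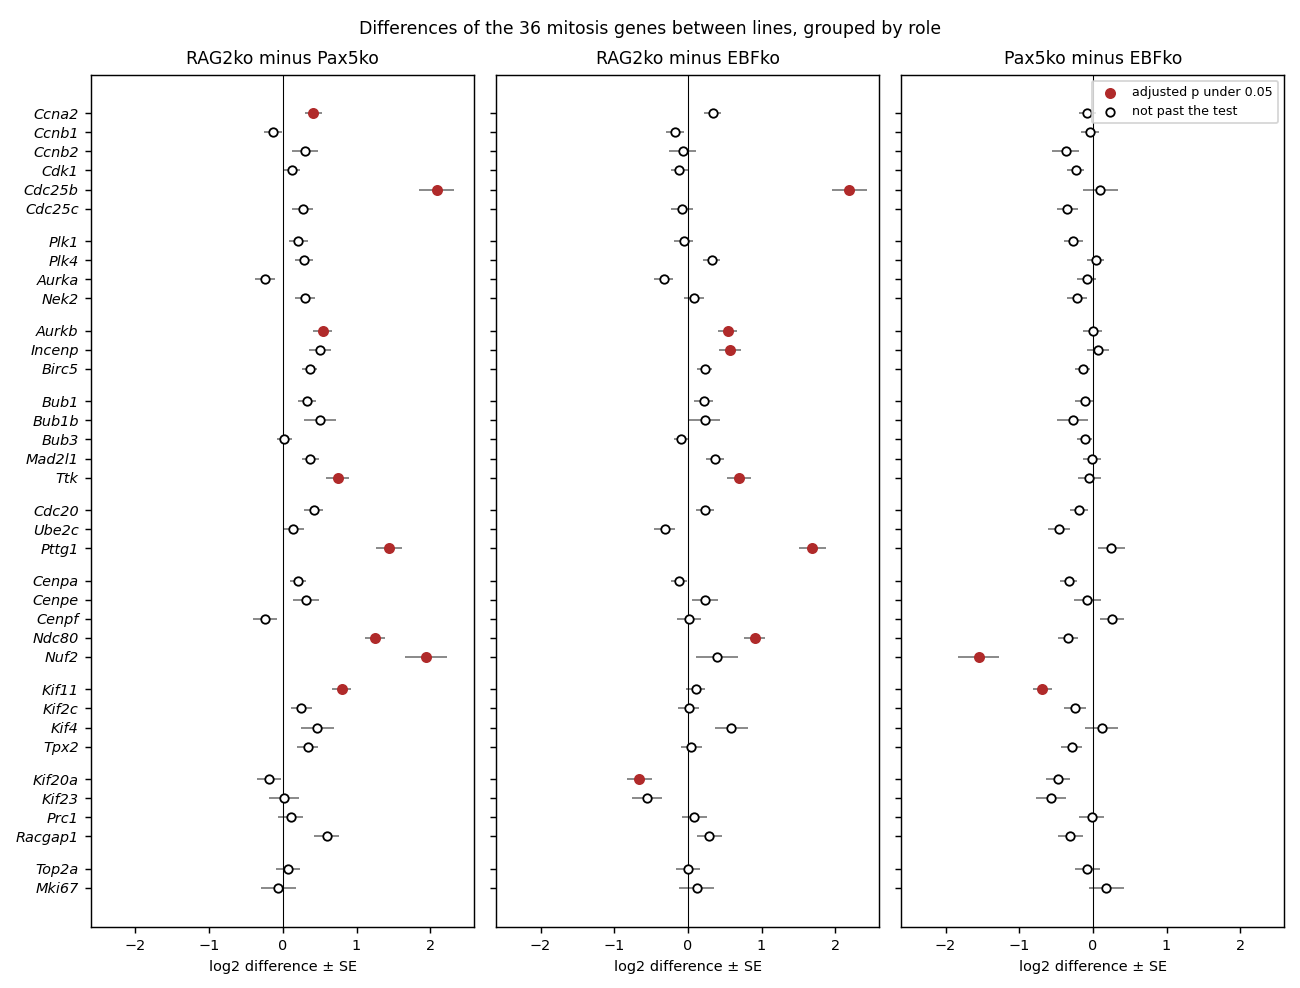
Log2 difference (horizontal axis, point) and its SE (bar) for each of the 36 members in the 3 comparisons, grouped by role down the page; red points passed the test and open points did not. Cdc25b lies farthest to the right in both comparisons of RAG2ko, followed by Nuf2 and Pttg1 over Pax5ko and by Pttg1 and Ndc80 over EBFko, and Nuf2 and Kif11 lie to the left in Pax5ko minus EBFko.

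As a whole the members lay higher in RAG2ko than in Pax5ko. Their median difference was 0.30, against 0.08 for all genes tested, and 31 of 36 lay above 0, against 55.2% of all genes. The 3 arrays of RAG2ko lay above all 3 of Pax5ko for 21 members, against 21.5% of all genes, and below them for 2, Aurka and Cenpf, against 15.9%; 23 members were without overlap in all, against 37.4% of all genes. The median was 0.11 in RAG2ko minus EBFko, against 0.07 for all genes, with 24 members above 0, against 54.6%. There 15 members were without overlap, against 38.6% of all genes, 12 of them higher, against 21.4%, and 3 lower, against 17.2%. In Pax5ko minus EBFko the median was -0.12, against -0.01, with 7 members above 0, against 48.9% of all genes. There 15 members were without overlap, against 33.9%, all of them lower in Pax5ko, against 17% of all genes lower and 16.9% higher. Without further normalization the median was -0.095, with 9 members above 0, 12 lower without overlap and 0 higher. These signs were not kept when each array was centred on its median in place of quantile normalization. Such centring gave a median of 0.06, with 20 members above 0, 3 lower without overlap and 1 higher. That scaling moved the median of all genes in the same comparison to 0.10, so relative to all genes the members' median was -0.11 with quantile normalization and -0.04 with median centring. Relative to all genes it was 0.23 and 0.26 in RAG2ko minus Pax5ko and 0.04 and 0.19 in RAG2ko minus EBFko. In RAG2ko minus EBFko it turned to -0.04 with array weights, where the members' median was 0.05, to -0.07 without EBFko replicate 3 and to -0.01 without RAG2ko replicate 3. Median centring moved the split of all calls to 637 higher and 838 lower in RAG2ko minus Pax5ko, in place of 1108 and 939, and to 516 and 345 in Pax5ko minus EBFko, in place of 573 and 580.

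The order of the lines was most often RAG2ko, EBFko, Pax5ko. The highest mean was in RAG2ko for 22 members, in Pax5ko for 2 and in EBFko for 12, and the lowest was in RAG2ko for 3, in Pax5ko for 26 and in EBFko for 7. With median centring RAG2ko had the highest mean of 29 members, but the lowest mean was in Pax5ko for 14 and in EBFko for 19, so the order of Pax5ko and EBFko rested on the scaling for many members.

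**Figure D2:**
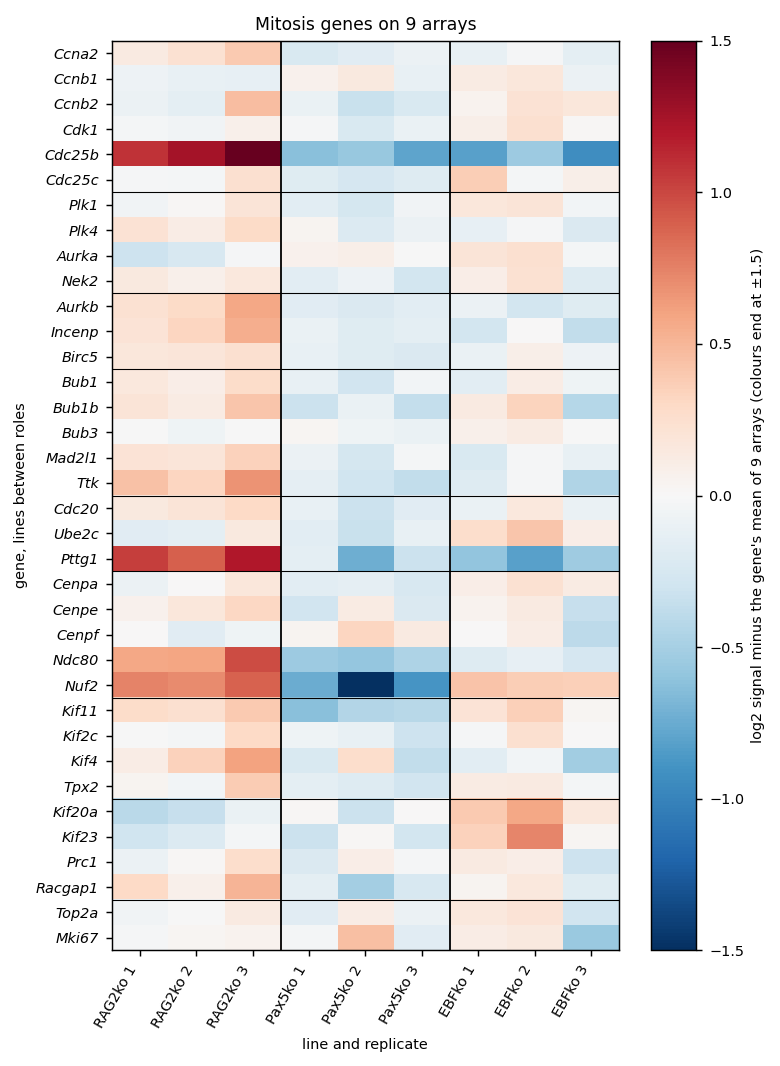
Log2 signal of each member (rows, grouped by role) on each of the 9 arrays (columns, RAG2ko, Pax5ko and EBFko), as the difference from the gene's own mean of the 9 arrays; red is above and blue below, and colours end at 1.5 in each direction. Cdc25b, Pttg1 and Ndc80 are red on the 3 RAG2ko arrays, Nuf2 is blue on the 3 Pax5ko arrays, and RAG2ko replicate 3 is the reddest array of its line.

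Among the cyclins, Cdk1 and its activators, Cdc25b had the largest difference of any member. This phosphatase activates cyclin-dependent kinases at the entry to mitosis. Its log2 signal was 10.38, 10.55 and 11.24 in RAG2ko, against 8.67, 8.73 and 8.50 in Pax5ko and 8.48, 8.75 and 8.37 in EBFko. Every RAG2ko array lay above every array of the other lines, which overlapped each other. Cdc25b rose by 2.09 ± 0.24 over Pax5ko (adjusted p = 0.00139), a 4.26-fold difference, and by 2.19 ± 0.24 over EBFko (adjusted p = 0.000863), a 4.57-fold difference, with a difference of 0.10 ± 0.24 in Pax5ko minus EBFko (adjusted p = 0.867). The related phosphatase gene Cdc25c did not share this: it averaged 8.75 ± 0.15 in RAG2ko, 8.48 ± 0.04 in Pax5ko and 8.83 ± 0.21 in EBFko, and passed no test.

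Ccna2 encodes cyclin A2, which acts in S phase and at mitotic entry. It gave 12.48, 12.57 and 12.73 in RAG2ko, against 12.12, 12.17 and 12.26 in Pax5ko and 12.24, 12.33 and 12.20 in EBFko. The RAG2ko arrays were above all others, and it rose over Pax5ko by 0.41 ± 0.11 (adjusted p = 0.0466); it missed the threshold in 16 of 21 alternatives, at adjusted p-values of 0.00716 to 0.14 over all of them. Over EBFko the difference was 0.34 ± 0.11 (adjusted p = 0.0774). A second Ccna2 probe set of similar signal gave 0.63 ± 0.15 over EBFko (limma adjusted p = 0.0347, over 40928 probe sets). Over Pax5ko that set gave 0.47 ± 0.15 (adjusted p = 0.0992). The cyclin B genes and Cdk1 itself passed no test. Ccnb1 averaged 11.97 ± 0.03 in RAG2ko, 12.10 ± 0.13 in Pax5ko and 12.14 ± 0.14 in EBFko. Ccnb2 averaged 12.57 ± 0.33, 12.27 ± 0.12 and 12.64 ± 0.09 in the same order, and Cdk1 12.60 ± 0.07, 12.48 ± 0.10 and 12.72 ± 0.11, so for both of these every Pax5ko array lay below every EBFko array.

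The 4 mitotic kinases of the set passed no test in any comparison, although at an unadjusted p under 0.05 Plk4 was higher in RAG2ko than in both other lines and Aurka lower than in EBFko. Aurka, which encodes Aurora A, the kinase of the spindle poles, was one of few members with its lowest mean in RAG2ko. It gave 11.14, 11.21 and 11.44 in RAG2ko, against 11.52, 11.55 and 11.45 in Pax5ko and 11.65, 11.70 and 11.43 in EBFko. The difference was -0.24 ± 0.13 in RAG2ko minus Pax5ko (adjusted p = 0.252), with arrays that did not overlap, and -0.33 ± 0.13 in RAG2ko minus EBFko (adjusted p = 0.123). Without RAG2ko replicate 3, which had the highest value of its line, Aurka passed the test as lower in RAG2ko than in EBFko. Plk1, the Polo kinase of mitotic entry, averaged 11.16 ± 0.13 in RAG2ko, 10.95 ± 0.11 in Pax5ko and 11.22 ± 0.13 in EBFko. Plk4, which starts centriole duplication, averaged 11.93 ± 0.09, 11.64 ± 0.12 and 11.61 ± 0.10, and Nek2, which separates centrosomes, 11.28 ± 0.05, 10.99 ± 0.10 and 11.21 ± 0.21, in the same order.

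All 3 genes of the chromosomal passenger complex had their highest mean in RAG2ko, with no overlap with either other line. This complex corrects faulty attachments of kinetochores and acts again in cytokinesis. Aurkb, its kinase Aurora B, gave 11.46, 11.52 and 11.81 in RAG2ko, against 11.06, 11.02 and 11.07 in Pax5ko and 11.15, 10.96 and 11.05 in EBFko. It rose by 0.54 ± 0.13 over Pax5ko (adjusted p = 0.0279) and by 0.54 ± 0.13 over EBFko (adjusted p = 0.0236), 1.46-fold in each, and it missed the threshold in 8 and 6 of 20 alternatives; the mean of its probe sets gave 0.36 over EBFko (adjusted p = 0.0973, in a range of 0.00407 to 0.0973). Its probe set is of the kind marked as able to bind several transcripts.

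Incenp, the scaffold of the complex, gave 11.37, 11.49 and 11.71 in RAG2ko, against 11.06, 10.98 and 11.01 in Pax5ko and 10.89, 11.17 and 10.79 in EBFko. The lowest RAG2ko array was still above the highest of the other 6. It rose over EBFko by 0.57 ± 0.15 (adjusted p = 0.0307), a call missed in 10 of 21 alternatives, among them the mean of its probe sets, which gave 0.30 (adjusted p = 0.467, in a range of 0.00561 to 0.467). Its difference from Pax5ko was 0.50 ± 0.15 (adjusted p = 0.0553). Birc5, the subunit survivin, averaged 12.72 ± 0.04 in RAG2ko, 12.36 ± 0.06 in Pax5ko and 12.49 ± 0.10 in EBFko, with adjusted p-values of 0.0537 against Pax5ko and 0.178 against EBFko.

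Of the 5 checkpoint genes 1 passed the test. Ttk, which encodes the kinase MPS1 at the head of the checkpoint, gave 11.07, 10.96 and 11.31 in RAG2ko, against 10.50, 10.34 and 10.27 in Pax5ko and 10.45, 10.62 and 10.19 in EBFko. The RAG2ko arrays were above the other 6, and Pax5ko and EBFko overlapped. Ttk rose by 0.74 ± 0.16 over Pax5ko (adjusted p = 0.019) and by 0.69 ± 0.16 over EBFko (adjusted p = 0.0206), or 1.67-fold and 1.62-fold. Each call was missed in 5 of 21 alternatives, and the mean of its probe sets gave 0.43 over Pax5ko (adjusted p = 0.354, in a range of 0.00259 to 0.354).

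The inhibitors that TTK sets in motion moved less. Mad2l1, the gene of MAD2, averaged 13.28 ± 0.09 in RAG2ko, 12.90 ± 0.12 in Pax5ko and 12.91 ± 0.11 in EBFko, with no overlap of RAG2ko with either line, but with adjusted p-values of 0.0777 and 0.0733. Bub1b, the gene of BUBR1, averaged 11.78 ± 0.15, 11.28 ± 0.14 and 11.55 ± 0.40, and Bub1, a kinase of the outer kinetochore, 12.06 ± 0.09, 11.74 ± 0.13 and 11.85 ± 0.14, in the same order. Bub3, the adaptor that places both of these at kinetochores, was nearly level at 13.17 ± 0.03, 13.15 ± 0.06 and 13.26 ± 0.06. All 5 checkpoint genes lay above 0 in RAG2ko minus Pax5ko, with differences of 0.02 to 0.74.

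Among the genes of anaphase onset, Pttg1 stood out. Its product, securin, holds separase inactive until the anaphase promoting complex removes it. Pttg1 gave 12.42, 12.28 and 12.58 in RAG2ko, against 11.24, 10.65 and 11.06 in Pax5ko and 10.79, 10.57 and 10.85 in EBFko. The lowest RAG2ko array was more than 1 log2 unit above every other array. It rose by 1.44 ± 0.18 over Pax5ko (adjusted p = 0.00214), 2.72-fold, and by 1.69 ± 0.18 over EBFko (adjusted p = 0.000832), 3.23-fold, and its difference in Pax5ko minus EBFko was 0.25 ± 0.18 (adjusted p = 0.491). Cdc20, the activator that the checkpoint restrains, averaged 12.60 ± 0.08 in RAG2ko, 12.18 ± 0.11 in Pax5ko and 12.37 ± 0.15 in EBFko, with an adjusted p of 0.0611 against Pax5ko. Ube2c, the ubiquitin-conjugating enzyme that works with the complex, ran another way, at 12.73 ± 0.17, 12.59 ± 0.12 and 13.04 ± 0.16: every Pax5ko array lay below every EBFko array, with a difference of -0.46 ± 0.14 (adjusted p = 0.104).

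**Figure D3:**
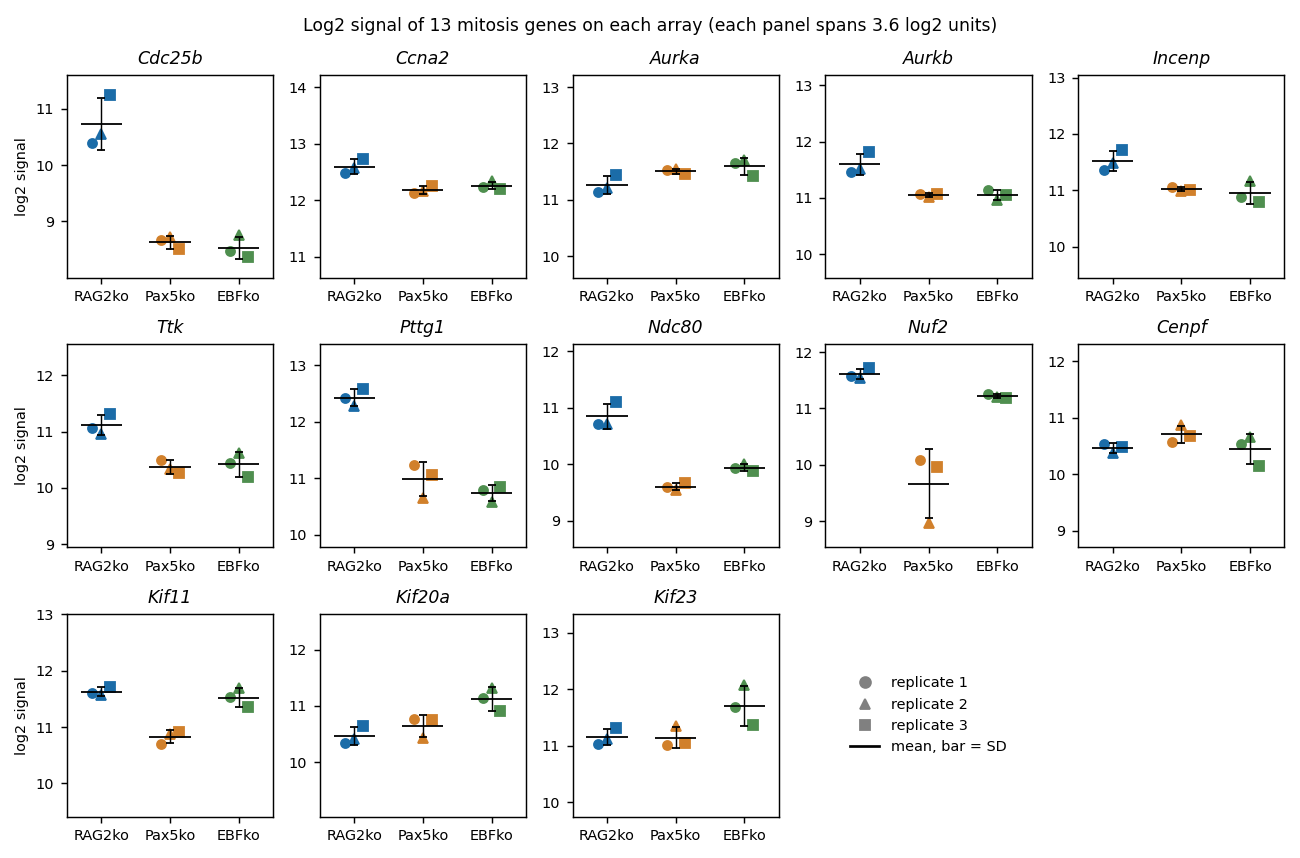
Log2 signal (vertical axis) on each array of the 13 members that were called in any comparison or had 1 of the 2 largest rises or falls of one; symbols mark replicates, horizontal lines the mean and bars the SD of 3 arrays, for RAG2ko, Pax5ko and EBFko from left to right. Cdc25b, Pttg1 and Ndc80 sit higher on all 3 RAG2ko arrays than on any other array, and Nuf2 and Kif11 sit lower on all 3 Pax5ko arrays.

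The kinetochore genes split in 2 ways. Ndc80 and Nuf2 encode the pair of proteins that form the microtubule-binding end of the NDC80 complex. Ndc80 gave 10.72, 10.72 and 11.11 in RAG2ko, against 9.59, 9.55 and 9.67 in Pax5ko and 9.93, 10.01 and 9.88 in EBFko. No 2 lines overlapped, and it rose in RAG2ko by 1.25 ± 0.14 over Pax5ko (adjusted p = 0.00125), 2.37-fold, and by 0.91 ± 0.14 over EBFko (adjusted p = 0.00389), 1.87-fold. In Pax5ko minus EBFko its difference was -0.34 ± 0.14 (adjusted p = 0.194).

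Nuf2 gave 11.58, 11.55 and 11.72 in RAG2ko, against 10.09, 8.96 and 9.96 in Pax5ko and 11.26, 11.21 and 11.19 in EBFko. Pax5ko was the low line here, with replicate 2 below its other arrays, and the SD of 0.62 was the highest of any member in that line. Nuf2 fell in Pax5ko by 1.55 ± 0.28 against EBFko (adjusted p = 0.0151), to 0.342 of its level, and rose in RAG2ko by 1.95 ± 0.28 against Pax5ko (adjusted p = 0.00401), 3.85-fold. The fall missed the threshold without EBFko replicate 1 (adjusted p = 0.0562) or EBFko replicate 2 (adjusted p = 0.0515), where its size was -1.54 and -1.56; over all alternatives the adjusted p was 0.00141 to 0.0562. Without Pax5ko replicate 2 it stayed past the test. In RAG2ko minus EBFko Nuf2 differed by 0.40 ± 0.28 (adjusted p = 0.377), with arrays that did not overlap, and Ndc80 by 0.91; the difference between the genes was not tested.

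The 3 other kinetochore genes passed no test. Cenpf, a large protein of the outer kinetochore and nuclear matrix, gave 10.54, 10.37 and 10.47 in RAG2ko, against 10.58, 10.86 and 10.67 in Pax5ko and 10.54, 10.65 and 10.15 in EBFko. It had the largest positive difference of any member in Pax5ko minus EBFko, 0.26 ± 0.16 (adjusted p = 0.412), and the most negative in RAG2ko minus Pax5ko, -0.24 ± 0.16 (adjusted p = 0.351). Cenpa, the centromeric histone, averaged 12.45 ± 0.13 in RAG2ko, 12.25 ± 0.05 in Pax5ko and 12.57 ± 0.07 in EBFko, and Cenpe, the kinetochore motor, 10.69 ± 0.13, 10.38 ± 0.22 and 10.45 ± 0.26.

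Kif11 was the member of the spindle motors and assembly factors that passed the test. It encodes the kinesin Eg5, which pushes spindle poles apart. Its signal was 11.60, 11.57 and 11.72 in RAG2ko, against 10.70, 10.88 and 10.91 in Pax5ko and 11.53, 11.68 and 11.35 in EBFko. Like Nuf2 it was low in Pax5ko alone, and RAG2ko and EBFko overlapped. Kif11 fell in Pax5ko by 0.69 ± 0.13 against EBFko (adjusted p = 0.0173), to 0.62 of its level, and rose in RAG2ko by 0.80 ± 0.13 against Pax5ko (adjusted p = 0.00633), 1.74-fold. The fall missed the threshold in 6 of 21 alternatives, among them median centring, which gave -0.50 (adjusted p = 0.106, in a range of 0.00154 to 0.106). Kif2c, a microtubule depolymerase, averaged 10.98 ± 0.18 in RAG2ko, 10.73 ± 0.13 in Pax5ko and 10.97 ± 0.14 in EBFko. Kif4, the chromosome-bound kinesin, averaged 9.88 ± 0.25, 9.42 ± 0.33 and 9.30 ± 0.25, and Tpx2, which activates Aurora A on the spindle, 11.47 ± 0.23, 11.14 ± 0.07 and 11.43 ± 0.09.

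The central spindle held the only member that fell in RAG2ko. Kif20a, a kinesin that carries the passenger complex to the midzone, gave 10.35, 10.41 and 10.65 in RAG2ko, against 10.77, 10.43 and 10.76 in Pax5ko and 11.14, 11.33 and 10.91 in EBFko. The RAG2ko arrays were all below the EBFko arrays and overlapped those of Pax5ko. It fell by 0.66 ± 0.17 against EBFko (adjusted p = 0.0297), to 0.633 of its level, a call missed in 8 of 21 alternatives, among them median centring, which gave -0.54 (adjusted p = 0.0976, in a range of 0.00543 to 0.0976). Kif23, the kinesin of the centralspindlin complex, gave 11.03, 11.12 and 11.30 in RAG2ko, against 11.01, 11.35 and 11.05 in Pax5ko and 11.68, 12.07 and 11.36 in EBFko. EBFko was again highest on every array, and the differences of -0.55 ± 0.20 in RAG2ko (adjusted p = 0.101) and -0.57 ± 0.20 in Pax5ko (adjusted p = 0.144) did not pass. Its partner Racgap1 followed the other order, with 11.50 ± 0.22 in RAG2ko, 10.90 ± 0.19 in Pax5ko and 11.21 ± 0.17 in EBFko, and just missed the threshold against Pax5ko (0.60 ± 0.17, adjusted p = 0.0513). Prc1, which bundles midzone microtubules, was nearly level at 10.69 ± 0.18, 10.58 ± 0.16 and 10.60 ± 0.24.

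The 2 chromosome proteins, often used as markers of cycling cells, passed no test. Mki67, the gene of the Ki-67 antigen, averaged 13.06 ± 0.03 in RAG2ko, 13.12 ± 0.33 in Pax5ko and 12.94 ± 0.39 in EBFko. Top2a, the topoisomerase that untangles sister chromatids, averaged 13.60 ± 0.10, 13.53 ± 0.14 and 13.60 ± 0.27. The largest of their 6 differences was 0.18 ± 0.24, for Mki67 in Pax5ko minus EBFko. This rested on the scaling. With median centring Mki67 gave 0.07 in RAG2ko minus Pax5ko, 0.45 in RAG2ko minus EBFko and 0.38 in Pax5ko minus EBFko. Top2a gave 0.22, 0.36 and 0.15 in the same order.

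In RAG2ko and EBFko most members were highest on the same array of the line. The array labelled RAG2ko replicate 3 was the highest of its line for 33 of 36 members, EBFko replicate 2 for 31 of 36, and EBFko replicate 3 was the lowest of its line for 26; in Pax5ko there was no such array, and its 3 replicates were highest for 15, 13 and 8 members. Set against each member's own mean, the median over members was 0.09, 0.07 and 0.29 on RAG2ko replicates 1 to 3, -0.15, -0.20 and -0.18 in Pax5ko and 0.07, 0.14 and -0.11 in EBFko. Stromal markers averaged 9.08 on RAG2ko replicate 3, the highest of its line, and 8.25 on EBFko replicate 2, the lowest of its line. Over the lines, 17 of 20 stromal markers differed at least 2-fold between RAG2ko and EBFko and 16 of 20 between RAG2ko and Pax5ko, and 2 and 1 of 20 lay above 0; their part in the members' differences was not tested. Without RAG2ko replicate 3, 7 members rose and 0 fell against Pax5ko, and 5 rose and 2 fell against EBFko. Of 11958 genes in that fit, 1218 were called higher and 1305 lower against Pax5ko, and 1559 and 1544 against EBFko. Without EBFko replicate 3, 3 members rose and 2 fell in RAG2ko minus EBFko, where 1092 of 11988 genes rose and 880 fell. Without EBFko replicate 1 or 2 no member fell in Pax5ko minus EBFko or in RAG2ko minus EBFko. Of 11975 and 11969 genes in these 2 fits, 343 and 330 fell in Pax5ko minus EBFko and 824 and 857 in RAG2ko minus EBFko. Without RAG2ko replicate 1 or 2 no member fell against EBFko either, where 906 of 11965 and 885 of 11934 genes fell. Without Pax5ko replicate 2 or 3 the rises of members over Pax5ko were 5, where 740 of 11997 and 743 of 11974 genes rose. Without Pax5ko replicate 1 there was 1 fall of a member in Pax5ko minus EBFko, where 368 of 12012 genes fell.

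Other probe sets of the same genes gave a check of single readings. Among 20 further probe sets of 17 members with a mean log2 signal above 8, the sign was that of the brightest probe set for 17 in RAG2ko minus Pax5ko, 15 in RAG2ko minus EBFko and 13 in Pax5ko minus EBFko. Some members differed more at another probe set, here adjusted over 40928 probe sets. A dimmer Kif2c probe set averaged 10.04 in RAG2ko, 9.0 in Pax5ko and 10.00 in EBFko, with differences of 1.04 ± 0.16 in RAG2ko minus Pax5ko (adjusted p = 0.00805) and -1.0 ± 0.16 in Pax5ko minus EBFko (adjusted p = 0.0146). A second Nek2 probe set averaged 9.68, 8.73 and 9.91 and also passed in these comparisons, at 0.94 ± 0.23 (adjusted p = 0.0413) and -1.18 ± 0.23 (adjusted p = 0.0289). The second probe set of Ccnb1 gave 0.58 ± 0.16 and -0.73 ± 0.16, with adjusted p-values of 0.0691 and 0.0504, where the brightest gave -0.14 and -0.03. For Kif11 the second set gave 0.39 ± 0.15 and -0.39 ± 0.15 and passed neither test, and for Pttg1 the dimmer set gave 1.24 ± 0.41 and, in RAG2ko minus EBFko, 1.91 ± 0.41 (adjusted p = 0.0246). Other dimmer sets passed as lower in RAG2ko. One of Bub1 averaged 6.70 in RAG2ko, 8.10 in Pax5ko and 8.56 in EBFko and fell by 1.40 ± 0.35 against Pax5ko (adjusted p = 0.0458); against EBFko its difference was -1.86 ± 0.35 (adjusted p = 0.0136), in both opposite to the sign of its brightest set. One of Cenpf fell against EBFko by 0.88 ± 0.19 (adjusted p = 0.0221), where the brightest gave 0.02, and one of Kif23, with means of 5.47 in RAG2ko, 5.96 in Pax5ko and 7.08 in EBFko, by 1.61 ± 0.34 (adjusted p = 0.0222), the sign of its brightest set. Over all 74 member probe sets that passed the filter, 8 rose and 1 fell in RAG2ko minus Pax5ko, 6 rose and 3 fell in RAG2ko minus EBFko, and 0 rose and 4 fell in Pax5ko minus EBFko. Of all 40928 probe sets, 2040 rose and 2020 fell, 2623 rose and 2550 fell, and 1080 rose and 1055 fell in the same order. The sets described here were singled out after their values were seen.

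The authors' deposited table of ratios, with 1 linear ratio per probe set and line against a reference it does not state, gave the same leading members without replicates. Cdc25b had a ratio of 6.96 in RAG2ko, 0.922 in Pax5ko and 0.979 in EBFko in the authors' deposited table. For Pttg1 the authors' deposited table listed 2.88, 0.901 and 0.589, and for Ndc80 it listed 2.54, 0.874 and 1.03. In the authors' deposited table Nuf2 had 1.24, 0.538 and 0.986 and Kif11 had 1.18, 0.505 and 1.06, so Pax5ko was again the low line for both. Kif20a had 0.86, 0.9 and 1.36 there, highest in EBFko.

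Promoter sequences were set beside these values because many mitotic genes share 2 short elements, the cell cycle genes homology region (CHR), bound by the repressor and activator complexes that time G2 and M transcription, and the CCAAT box bound by NF-Y. Windows of 250 bases before to 50 after a RefSeq start site (build GRCm38.p6) were at hand for 30 of the 36 members, 32 windows in all, with 2 overlapping windows each for Bub3 and Prc1. On either strand, TTTGAA was in 68.8% of the members' windows and in 17.9% of all 32851 windows, TTTAAA in 31.2% and 13.2%, and CCAAT in 78.1% and 37.4%. A CHR of either form together with CCAAT was in 68.8% of the members' windows and 10.7% of all, and 2 or more CCAAT were in 50% and 11.7%. The E2F words TTTGGCGC, TTTCGCGC and TTTCCCGC were in 3.12% and 1.84%. Over the 32 windows, 51 of 52 CCAAT matches lay before the start site, with a median first base at -69.5, and of 37 CHR matches 23 lay before it and 14 after it. Words that share letters were each counted, and a match is a description of letters and no site.

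Of the 10 called members 6 had a window, and 3 of these 6, Kif11, Ndc80 and Ttk, held a CHR match, against 24 of all 30 members. Shown for comparison are the 250 bases before the start site of 5 called members, chosen after their values were seen, and of Ccnb2, which passed no test and had both elements. Letters are 5′ to 3′ on the gene's strand, from RefSeq, and capitals mark each CHR or CCAAT word on either strand; a CCAAT box on the other strand reads ATTGG here.
Cdc25b, chr2:131186698-131186947, plus strand: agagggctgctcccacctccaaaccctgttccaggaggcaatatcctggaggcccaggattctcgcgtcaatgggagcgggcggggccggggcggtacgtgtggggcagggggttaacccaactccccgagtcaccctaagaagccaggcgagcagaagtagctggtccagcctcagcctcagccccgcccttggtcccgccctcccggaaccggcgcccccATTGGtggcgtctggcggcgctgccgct
Pttg1, chr11:43425982-43426231, minus strand: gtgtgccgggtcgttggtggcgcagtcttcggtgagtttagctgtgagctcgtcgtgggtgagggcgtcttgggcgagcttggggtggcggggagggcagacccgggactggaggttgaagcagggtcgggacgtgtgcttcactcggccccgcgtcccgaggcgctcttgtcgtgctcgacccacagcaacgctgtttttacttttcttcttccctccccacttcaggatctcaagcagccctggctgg
Nuf2, chr1:169531465-169531714, minus strand: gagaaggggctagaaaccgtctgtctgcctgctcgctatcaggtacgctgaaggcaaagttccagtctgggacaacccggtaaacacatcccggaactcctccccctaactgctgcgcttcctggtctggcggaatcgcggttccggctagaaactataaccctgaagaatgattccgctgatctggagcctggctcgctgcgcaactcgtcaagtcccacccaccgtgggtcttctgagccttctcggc
Kif11, chr19:37376132-37376381, plus strand: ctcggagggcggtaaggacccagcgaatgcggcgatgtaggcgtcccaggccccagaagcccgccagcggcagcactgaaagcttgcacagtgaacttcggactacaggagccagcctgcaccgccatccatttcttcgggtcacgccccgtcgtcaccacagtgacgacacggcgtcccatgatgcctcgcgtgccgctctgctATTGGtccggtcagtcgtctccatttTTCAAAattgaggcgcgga
Ttk, chr9:83834439-83834688, plus strand: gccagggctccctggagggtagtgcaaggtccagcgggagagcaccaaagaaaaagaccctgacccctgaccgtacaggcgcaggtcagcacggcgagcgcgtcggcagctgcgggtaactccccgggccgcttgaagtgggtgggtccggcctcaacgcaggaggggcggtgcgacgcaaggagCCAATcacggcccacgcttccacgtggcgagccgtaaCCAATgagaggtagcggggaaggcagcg
Ccnb2, chr9:70421555-70421804, minus strand: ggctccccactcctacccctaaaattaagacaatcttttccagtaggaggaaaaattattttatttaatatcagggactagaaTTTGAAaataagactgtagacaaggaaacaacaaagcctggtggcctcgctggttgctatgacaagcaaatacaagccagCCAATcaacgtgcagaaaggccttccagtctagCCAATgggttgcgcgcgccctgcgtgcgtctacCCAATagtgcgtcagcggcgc
Cdc25b held 1 CCAAT box and no CHR match, and Pttg1 and Nuf2 held no match, in the stretch shown or in the 50 bases after it. In Kif11 a CCAAT box began at -45 and a CHR at -19 from the start site, while Ttk had CCAAT boxes at -65 and -28 and its CHR at 8, past the stretch shown. Ccnb2 had CCAAT boxes at -87, -54 and -21, a CHR at -167 and another at 5, past the stretch shown.

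**Figure D4:**
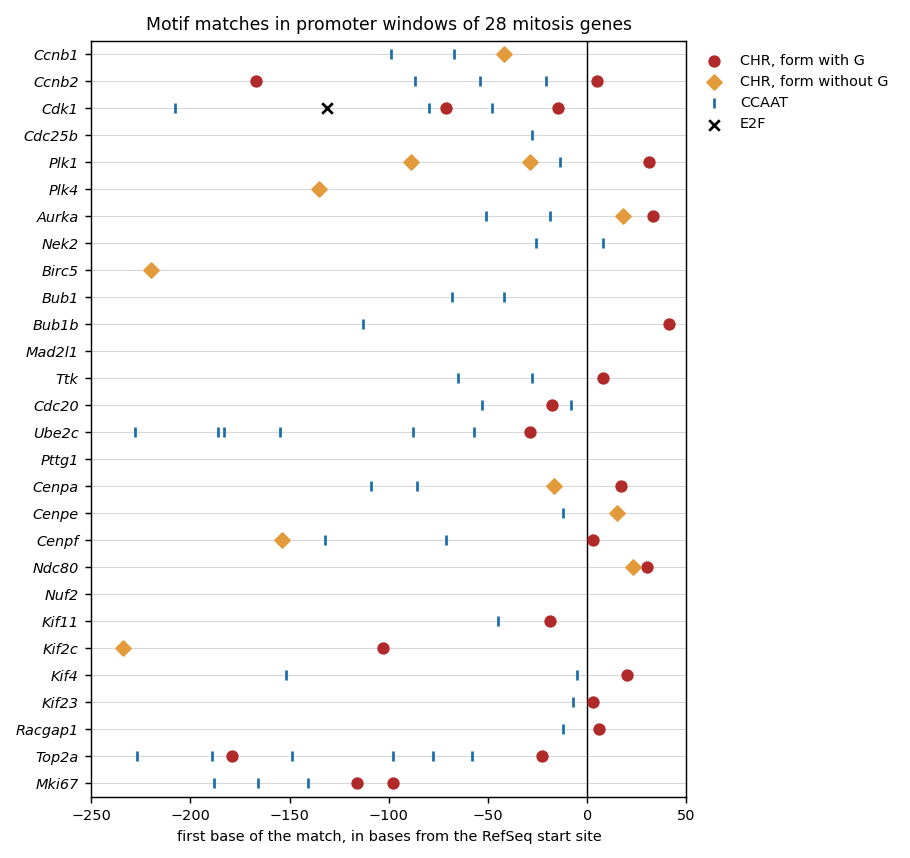
First base of each motif match (horizontal axis, bases from the RefSeq start site at 0, upstream negative) in the windows of the 28 members with 1 window, by gene down the page; circles are the CHR form TTTGAA, diamonds the form TTTAAA, bars CCAAT and the cross an E2F word, on either strand. Nearly all bars lie before the start, and Mad2l1, Pttg1 and Nuf2 have no match.

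Other genes of the pathway, none of them members, gave the setting. Of 286 further genes of cell division in 9 lists 261 were tested. B4galt1, described below, was on a list though it is no gene of cell division. Its falls in RAG2ko are in the counts that follow. In RAG2ko 51 of them rose and 12 fell against Pax5ko, where 9.16% of all genes were called higher and 7.76% lower. Against EBFko 47 rose and 18 fell in RAG2ko, where the shares of all genes were 10.9% and 9.79%. In Pax5ko against EBFko 8 rose and 11 fell, where those shares were 4.74% and 4.8%. The count of 51 was 22 with median centring, which also cut the share of all genes called higher in that comparison to 5.26%.

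Among 39 other kinetochore and checkpoint genes, 13 passed as higher and 1 as lower in RAG2ko than in Pax5ko, and 12 and 1 against EBFko, 33.3% and 30.8% higher, with medians of 0.45 and 0.21. All genes were at 9.16% and 10.9% higher. With median centring the counts that rose were 3 and 8, where 637 and 1148 of 12102 genes rose. The rises over Pax5ko were 7 without Pax5ko replicate 2, 5 without Pax5ko replicate 3, 6 without RAG2ko replicate 1 and 7 without RAG2ko replicate 2. All genes called higher in these fits were 740, 743, 646 and 672. The rises over EBFko were 5 without EBFko replicate 1, 6 without EBFko replicate 2 and 7 without RAG2ko replicate 1 or 2. All genes called higher in these were 945, 988, 893 and 887. Without RAG2ko replicate 3 the falls of the list were 2 and 4, where 1305 and 1544 genes fell. Cenps, which encodes a protein of the constitutive centromere network, averaged 11.65 in RAG2ko, 9.85 in Pax5ko and 8.34 in EBFko and rose at each step: by 1.8 ± 0.13 over Pax5ko (adjusted p = 0.000247), by 3.31 ± 0.13 over EBFko (adjusted p = 1.17e-05), and in Pax5ko over EBFko by 1.51 ± 0.13 (adjusted p = 0.000814). Cenpb, the protein that binds centromeric repeats, rose in RAG2ko by 2.61 ± 0.32 (adjusted p = 0.00196) and 2.09 ± 0.32 (adjusted p = 0.00408) over Pax5ko and EBFko. Bod1, which governs a phosphatase at the kinetochore, fell by 0.98 ± 0.16 (adjusted p = 0.00577) and 0.85 ± 0.16 (adjusted p = 0.00829). Cenpn, a reader of the centromeric histone, fell in Pax5ko against EBFko by 0.83 ± 0.16 (adjusted p = 0.0188), the 1 fall of the list there beside the rise of Cenps.

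The S phase list, the most like group outside mitosis, held 15 rises and 0 falls among 45 genes in RAG2ko against Pax5ko and 13 rises and 0 falls against EBFko. At an unadjusted p under 0.05 limma gave 20 higher and 1 lower against Pax5ko, where the shares of all genes were 17.5% and 14%. Against EBFko it gave 19 higher and 1 lower, where those shares were 17.9% and 15.6%. The 15 and 13 rises were 33.3% and 28.9% of the list, against 9.16% and 10.9% of all genes. The 15 rises were 7 with median centring, 9 without Pax5ko replicate 2, 8 without RAG2ko replicate 1 and 9 without RAG2ko replicate 2. All genes called higher there were 637, 740, 646 and 672, in place of 1108. The 13 were 8 without EBFko replicate 2 or RAG2ko replicate 1, where all genes called higher were 988 and 893, in place of 1323. The medians of the S phase list, 0.25 and 0.26, were close to each other, where those of the mitosis members were 0.30 and 0.11. With median centring the members' medians were 0.32 and 0.35, so their gap rested on the scaling. The difference between the lists was not tested. Rrm2, a subunit of ribonucleotide reductase, averaged 13.35 in RAG2ko, 11.96 in Pax5ko and 12.32 in EBFko and rose by 1.39 ± 0.18 (adjusted p = 0.00239) and 1.02 ± 0.18 (adjusted p = 0.00683). Ccne2, cyclin E2, was low in Pax5ko in the manner of Nuf2 and Kif11, with 11.37 in RAG2ko, 9.97 in Pax5ko and 11.11 in EBFko: it rose in RAG2ko over Pax5ko by 1.40 ± 0.16 (adjusted p = 0.00158) and fell in Pax5ko against EBFko by 1.14 ± 0.16 (adjusted p = 0.00603). Gins2, a part of the replicative helicase, rose over EBFko by 0.89 ± 0.11 (adjusted p = 0.00165). In Pax5ko against EBFko 2 S phase genes rose, among them Ccne1 by 0.67 ± 0.11 (adjusted p = 0.0123), and 2 fell. These were 4.44% of the list in each direction, near the 4.74% and 4.8% of all genes.

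**Figure D5:**
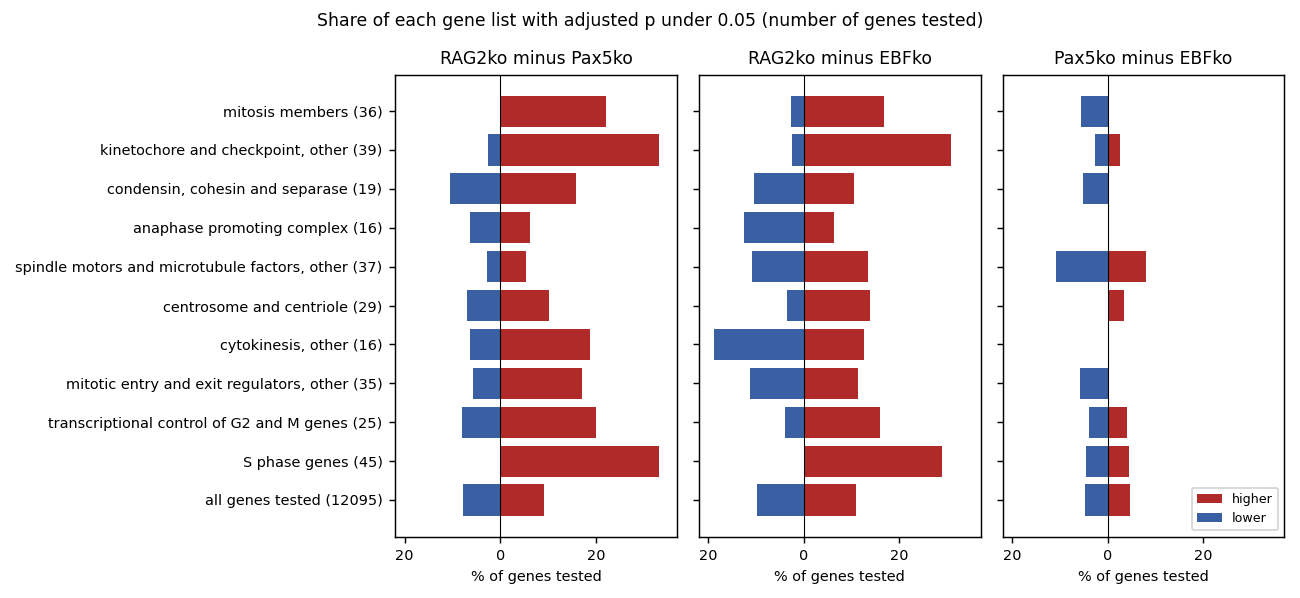
Share of the tested genes of each list (number in brackets) with an adjusted p under 0.05, to the right of 0 where higher and to the left where lower, in the 3 comparisons; the lowest row is all genes tested. In both comparisons of RAG2ko the longest bars to the right are those of the other kinetochore and checkpoint genes and the S phase genes, at 33.3% each against Pax5ko.

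Of 25 genes listed for transcriptional control of G2 and M genes, 5 were called higher and 2 lower in RAG2ko than in Pax5ko (20% and 8%, against 9.16% and 7.76% of all genes). Against EBFko 4 were higher and 1 lower (16% and 4%, against 10.9% and 9.79%), so that the share called in either direction was near that of all genes, 20.7%. E2f8, a repressor of the E2F family, rose by 1.51 ± 0.15 (adjusted p = 0.000945) and 1.15 ± 0.15 (adjusted p = 0.0022), and E2f7, its close relative, by 1.66 ± 0.16 over EBFko (adjusted p = 0.000574) and, in Pax5ko over EBFko, by 0.74 ± 0.16 (adjusted p = 0.0331). E2f2, an activator of the family, rose over Pax5ko by 1.56 ± 0.31 (adjusted p = 0.0141). Mybl1, with means of 5.05 in RAG2ko and 6.06 in Pax5ko, fell in RAG2ko by 1.01 ± 0.24 (adjusted p = 0.0273). Rbbp4 fell in Pax5ko against EBFko by 1.06 ± 0.25 (adjusted p = 0.0435). B4galt1 was on the list, but it encodes a galactosyltransferase and is no such regulator. It fell in RAG2ko by 0.77 ± 0.21 against Pax5ko (adjusted p = 0.047). Against EBFko it was the only fall, by 1.12 ± 0.21 (adjusted p = 0.00977). Among 35 other regulators of mitotic entry and exit, 6 were higher and 2 lower in RAG2ko than in Pax5ko by the test (17.1% and 5.71%), and 4 and 4 against EBFko (11.4% each, near the shares of all genes). Gtse1, a protein of G2 and M phase, rose by 1.48 ± 0.18 (adjusted p = 0.0018) and 1.17 ± 0.18 (adjusted p = 0.00404), and Nek6, a mitotic kinase, fell by 1.91 ± 0.13 (adjusted p = 0.000179) and 2.05 ± 0.13 (adjusted p = 7.93e-05).

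The remaining lists were short or had few calls. Of all genes, 9.16% were called higher and 7.76% lower in RAG2ko minus Pax5ko, and 10.9% and 9.79% in RAG2ko minus EBFko. Of 19 condensin, cohesin and separase genes, 3 passed as higher and 2 as lower in RAG2ko than in Pax5ko (15.8% and 10.5%). Against EBFko 2 were higher and 2 lower (10.5% each). Esco2, an acetyltransferase of cohesin, was higher by 1.18 ± 0.16 (adjusted p = 0.00271) and 1.38 ± 0.16 (adjusted p = 0.00107). Wapl, which releases cohesin, was lower at -0.93 ± 0.11 (adjusted p = 0.00177) and -0.99 ± 0.11 (adjusted p = 0.00102). Of 37 other spindle motors and microtubule factors 2 rose and 1 fell against Pax5ko (5.41% and 2.7%). Against EBFko 5 rose and 4 fell (13.5% and 10.8%), near the shares of all genes. Clasp2, which steadies microtubule ends, rose by 1.01 ± 0.13 (adjusted p = 0.00271) and 0.85 ± 0.13 (adjusted p = 0.00444), and Haus8, a subunit of augmin, fell in Pax5ko against EBFko by 1.27 ± 0.14 (adjusted p = 0.00225). The anaphase promoting complex had 1 rise and 1 fall among 16 genes against Pax5ko (6.25% each) and 1 and 2 against EBFko (6.25% and 12.5%). Centrosome and centriole genes had 3 and 2 (10.3% and 6.9%) and then 4 and 1 (13.8% and 3.45%) among 29. Other cytokinesis genes had 3 and 1 (18.8% and 6.25%) and then 2 and 3 (12.5% and 18.8%) among 16. Of these, Cdc27, a subunit of the anaphase promoting complex, fell by 0.61 ± 0.14 (adjusted p = 0.0251) and 0.66 ± 0.14 (adjusted p = 0.0152), and Septin9 by 0.74 ± 0.16 (adjusted p = 0.0202) and 1.19 ± 0.16 (adjusted p = 0.00236). Myh10, of the cytokinesis list like Septin9, rose by 1.84 ± 0.48 (adjusted p = 0.0386) and 3.65 ± 0.48 (adjusted p = 0.00197).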

How the data were processed

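In the deposited matrix each array has a linear signal intensity for every probe set, with a trimmed mean of 500.003 or 500.004 on every array; GCRMA is named in the submitters' processing notes, and the step that scaled the values is not given in the sources used here. Log2 was taken here of the deposited intensities, followed by quantile normalization over the 9 arrays. The deposited table of each line, which gives 1 linear ratio per probe set, was an alternative only. Control probe sets (64) were left out. Of 45101 probe sets 23381 could be named: 13127 by a RefSeq accession and the others by a description or clone name that led to 1 RefSeq symbol (assembly GRCm38.p6), 164 of these by hand. Genes were kept where 3 or more arrays exceeded a log2 signal of 4.

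The 3 lines were fitted together by lmFit and eBayes of limma 3.58.1 under R 4.3.3 (two-sided tests), with calls at an adjusted p under 0.05. Scripts were tested on simulated data. Members and gene lists were chosen with earlier results of these data known; lists are described by counts and medians, with no set test. Named were all members by line means, every array of members called or among the 2 largest rises or falls of a comparison, and from each list at most the 2 largest rises and falls among called genes without overlap. Alternatives changed the scaling, filter, probe set choice, variance model and samples. No array was left out of the reported fit, and no value was imputed. The number of arrays limits the precision.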

Additional observations from a re-analysis of the deposited data

How the results depend on the processing

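Cdc25b, Pttg1 and Ndc80 in both comparisons of RAG2ko, and Nuf2 and Kif11 in RAG2ko minus Pax5ko, passed the test in all 21 alternatives that gave a p; no called member changed sign. The other calls were each missed in 2 to 16 alternatives, and the cause was not tested. The 2 members that fell in Pax5ko minus EBFko were 1 with median centring, 5 with a trended robust variance, 5 with array weights and 1 with the replicate block. Over all genes, 12095 where no other number is given, the 580 falls were 345 of 12102, 819, 861 and 415 in the same order. The 1 member that fell in RAG2ko minus EBFko became 0 with median centring, the replicate block, the 6 arrays of the comparison alone and every probe set tested. It became 3 with probe sets averaged, 2 with a trended robust variance and 4 with array weights. The 1184 falls of all genes were, in the same order, 909 of 12102, 1098, 844, 2550 of 40928 probe sets, 1044 of 11822, 1440 and 1634. The 6 members that rose there were 10 with signals below 64 raised to 64 and 3 with 6 arrays. The 1323 rises of all genes were 1498 of 12929 and 934. The 8 members that rose in RAG2ko minus Pax5ko were 13 without normalization, 13 with a filter at 6 and 13 with signals raised to 64. They were 14 with a trended robust variance and 5 with the replicate block. The 1108 rises of all genes were, in the same order, 966 of 12112, 1336 of 9271, 1326 of 12929, 1394 and 900. Leaving out each replicate in turn gave 0 to 2 falls of members in Pax5ko minus EBFko, 3 to 7 rises and 0 to 2 falls in RAG2ko minus EBFko and 5 to 7 rises in RAG2ko minus Pax5ko. Over all genes, 11934 to 12012 in these fits, there were 330 to 711 falls in Pax5ko minus EBFko. There were 887 to 1559 rises and 824 to 1544 falls in RAG2ko minus EBFko, and 646 to 1218 rises in RAG2ko minus Pax5ko.

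The members' median was 0.060 in Pax5ko minus EBFko with median centring, and -0.23 to -0.08 without 1 replicate. In RAG2ko minus EBFko it was 0.35 with median centring, 0.048 with array weights, 0.22 without probe sets marked as shared, 0.26 in the authors' deposited table of ratios and 0.0013 to 0.21 without 1 replicate. In RAG2ko minus Pax5ko it was 0.47 in the authors' deposited table and 0.25 to 0.35 without 1 replicate. Of the other cell division genes in Pax5ko minus EBFko, the 11 falls became 4 with median centring, 17 with a filter at 6 and 21 with signals raised to 64. They became 28 with a trended robust variance, 24 with array weights and 6 with the replicate block. The falls of all genes were 345 of 12102, 738 of 9271, 794 of 12929, 819, 861 and 415 in the same order. The 8 rises became 15, 14, 19 and 18 with the filter, raised signals, trend and weights and 4 with averaging or the block. The rises of all genes, 573 in the main fit, were 730, 760, 816 and 929 there, and 452 of 11822 and 407. The 18 falls of these lists in RAG2ko minus EBFko were 10 with median centring and 10 with 6 arrays, and the 47 rises 30 with 6 arrays. All genes had 909 and 844 falls and 934 rises there. The 12 falls of the lists in RAG2ko minus Pax5ko were 21 with array weights, 6 with the block and 5 with 6 arrays, and the 51 rises 22 with median centring. All genes, with 939 falls and 1108 rises in the main fit, had 1578, 872 and 718 falls and 637 rises there. Without 1 replicate the lists had 4 to 13 falls and 4 to 15 rises in Pax5ko minus EBFko, 11 to 26 and 28 to 43 in RAG2ko minus EBFko and 3 to 15 and 31 to 49 in RAG2ko minus Pax5ko. All genes had 308 to 788 rises in Pax5ko minus EBFko and 624 to 1305 falls in RAG2ko minus Pax5ko, with the other ranges as given above.

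Whether the replicate numbers pair the samples is not known. Same-numbered arrays correlated at -0.03 to 0.13 over 9 pairs, and others at -0.17 to 0.10. These ranges overlap, with the first reaching somewhat higher, so they cannot decide it. The reported fit ignored the numbers. With the replicate block the calls of Aurkb, Ccna2 and Ttk against Pax5ko were missed. So were those of Incenp, Kif20a and Ttk against EBFko, and that of Kif11 in Pax5ko minus EBFko. Testing every probe set was added after seeing the data. Dim signals limit few statements on the members at their brightest probe sets, since the lowest value of any member there was 8.37.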
